A study of Zea mays with 6 samples.

Results

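Maize transcript models annotated to the synthesis of cellulose, callose, other glucans and starch were described in RNA-seq of the ovule before and after pollination. A model belonged to the set when its Blast description named a cellulose synthase, callose synthase, 1,3-beta-glucan synthase, starch synthase or starch branching enzyme, or when its GO process text in the embryo sac or nucellus tables named a glucan biosynthetic process. Trehalose models were left out, as were 5 models of 3 genes whose text named a xyloglucan enzyme. This gave 101 models of 79 genes, out of 42007 models of 31057 genes listed in any library. The Blast description alone or with the GO text placed 53 models in the set, and the GO text alone placed 48.

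All samples came from the maize inbred line Q319, and the labels name no transgene, mutation or chemical treatment. The 3 groups were unpollinated embryo sacs, the nucellus, and embryo sacs collected 14 to 16 h after pollination, with 2 biological replicate libraries each. Embryo sacs, the female gametophytes that hold the egg and central cell, were freed from ovule slices with enzymes, and the nucellus, the maternal tissue that surrounds them, came from the same slices. The labels give neither the number of plants or ovules behind a library nor the age of the plants, so the p-values below measure only the spread between these libraries.

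Cellulose synthases work as complexes in the plasma membrane, where they draw UDP-glucose from the cytoplasm and extrude cellulose into the wall. Callose synthases make a 1,3-beta-glucan that is laid down at plasmodesmata, in new cell plates, around meiotic spores and in pollen tube walls, and cellulose synthase-like family F enzymes make the mixed-linkage glucan of grass walls. Starch is built inside plastids from ADP-glucose by starch synthases, which lengthen glucan chains, and by branching enzymes, which add branch points.

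The embryo sac libraries together held 6281360 uniquely assigned reads, the nucellus libraries 6204936 and the pollinated embryo sac libraries 5220772, with the smaller library of a group at 92.7% or more of the larger. The members took 0.821% of all reads in embryo sacs, 0.644% in nucellus and 1.31% in pollinated embryo sacs. Embryo sac marker models, 9 in all and among them those described as EGG APPARATUS-1 and ZmEBE-2, summed to 2480 to 2610 RPKM in embryo sacs, 6.59 to 10.1 in nucellus and 2330 to 2340 after pollination, and 7 of the 9 had no nucellus read. All 9 were called higher in embryo sacs than in nucellus, and 1 was called lower after pollination. No nucellus marker was fixed from the descriptions, so nucellus RNA in the embryo sac libraries was not gauged. Pollen markers, 29 models of which 5 could be tested, summed to 40.1 to 54.5 RPKM in embryo sacs and 37.2 to 41.7 after pollination, and none of the 5 was called between these groups (1 was lower under total scaling). In nucellus they summed to 62.3 to 70.1. Green tissue markers, 10 chlorophyll a-b binding protein models, summed to 6.01 to 6.72 RPKM in embryo sacs, 28.2 to 30.4 in nucellus and 1.68 to 4.62 after pollination. Of the 3 green tissue models that could be tested, 2 were lower and 1 higher in embryo sacs than in nucellus (none higher under total scaling), and 2 were lower after pollination. RPKM below are reads per kilobase of model, scaled to library size after TMM scaling, a correction for library composition. Over all models, the middle log2 change was -0.00 in embryo sacs against nucellus with TMM and -0.74 with libraries scaled to their totals alone. The same pair of values was -0.08 and -0.25 after pollination, and -0.06 and -0.97 when pollinated embryo sacs were set against nucellus.

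Of the 101 members, 61 models of 59 genes had enough reads to be tested, and the other 40 had at most 40 reads in all libraries together. A model was called when its adjusted p (edgeR quasi-likelihood test, Benjamini-Hochberg over 18844 models) was under 0.05 and its log2 change was at least 1 in size. In embryo sacs against nucellus, 25 members were higher and 8 lower, or 41% and 13.1% of those tested. Of all tested models, 23.2% were called higher and 16.3% lower, 39.4% in all. The 31 tested members chosen by the GO text alone held 16 of the 25 higher and 2 of the 8 lower. Under total scaling, 17 members were higher and 20 lower, against 16.0% and 39.3% of all models. The median log2 change of the tested members was 0.45, and -0.29 under total scaling, each above the median of all models by a similar distance.

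After pollination, 10 of the 61 tested members were higher and 11 lower than in unpollinated embryo sacs, or 16.4% and 18.0%, close to the 13.0% and 19.3% of all tested models (32.3% in either direction). Under total scaling, 9 were higher and 12 lower, against 10.3% and 23.1% of all models. The median log2 change of the members was 0.27. No called member had overlapping groups in any of the 3 comparisons, and none turned its sign under total scaling or DESeq2 size factors. Both outcomes largely follow from the call rule, which asks for a log2 change of at least 1 in size. They are thus no added support for these members, and no share over all called models is given here. The embryo sac libraries enter both of these comparisons, so the changes are given side by side and not related to each other. In bulk tissue, a lower level cannot be told apart from fewer cells of the type that holds the RNA.

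**Figure D1:**
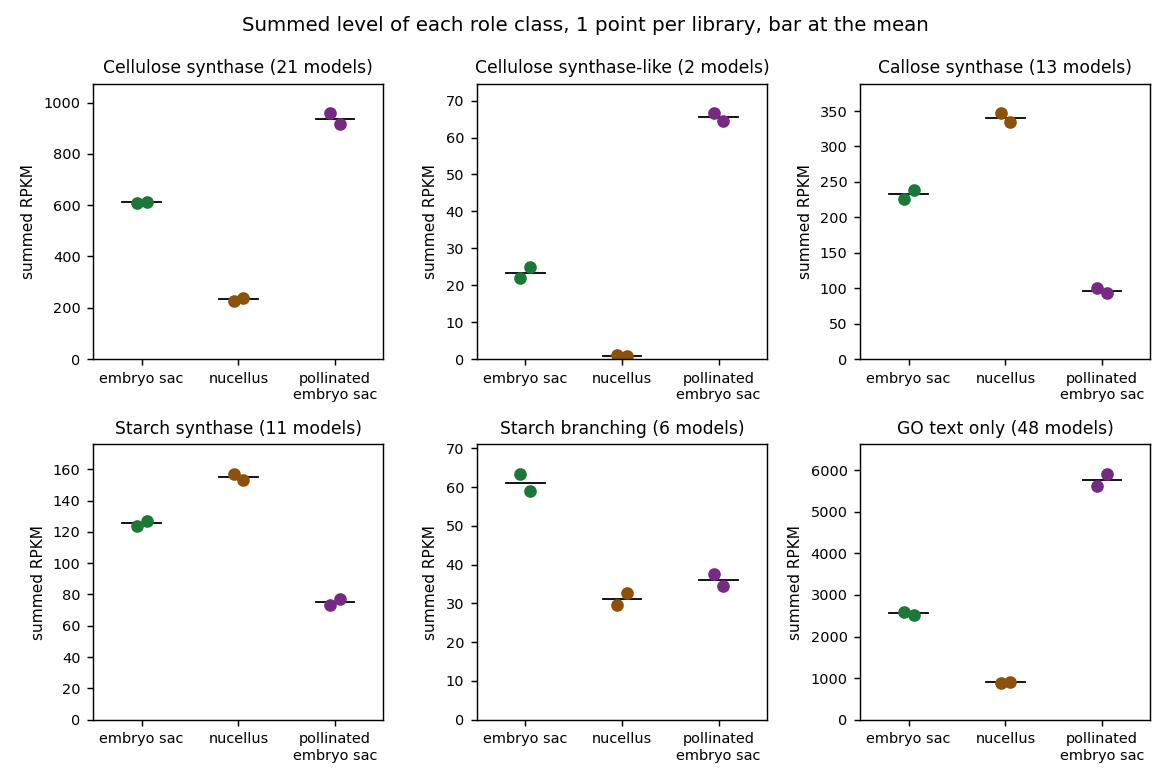
Summed RPKM (TMM-scaled library sizes, linear axes from 0) of the members in each role class, with 1 point per library and a bar at the mean of the 2 libraries of a tissue. Cellulose synthase, cellulose synthase-like and GO-text members sum highest in pollinated embryo sacs, while callose synthases and starch synthases sum highest in nucellus and lowest in pollinated embryo sacs.

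The summed levels differed by role. Cellulose synthase members together reached 612 ± 2.57 RPKM (SD, n = 2) in embryo sacs, 232 ± 7.81 in nucellus and 938 ± 29.8 in pollinated embryo sacs. Callose synthases showed another order, with 233 ± 9.43 RPKM in embryo sacs, 341 ± 9.08 in nucellus and 96.6 ± 4.69 after pollination. Starch synthases summed to 125 ± 2.12, 155 ± 2.82 and 75.2 ± 2.35 RPKM in the same order of tissues. The libraries of the 3 tissues did not overlap in any of these sums, as the plot of summed levels shows. Under total scaling the order of the tissues was the same for these 3 classes. The callose synthase sum after pollination was 0.415 of that before it, and this value rests largely on 3 models described as callose synthase 9-like. Without those 3 models, a choice made after the values were seen, the sums were 131 ± 4.04, 161 ± 8.90 and 91.3 ± 4.02 RPKM and the ratio was 0.696.

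With TMM scaling, models whose Blast description names a cellulose synthase were mostly higher in the embryo sac than in nucellus. Of 21 models, 10 were tested, with a median log2 change of 1.43 in embryo sacs against nucellus. Of these 10, 7 were higher and 1 lower, or 70% and 10%, against 23.2% and 16.3% of all tested models. Under total scaling 4 of the 10 were higher and 3 lower, against 16.0% and 39.3% of all models, and the median of the 10 was 0.69. After pollination, 2 were higher and 2 lower, or 20% each way, against 13.0% and 19.3% of all tested models. A group of 3 models, 2 described as cellulose synthase8 and 1 as cellulose synthase2, carried most of the class. The cellulose synthase2 model GRMZM2G027723_T01 had 230 and 232 RPKM in the embryo sac libraries, 76.0 and 70.8 in nucellus, and 336 and 293 after pollination. Its log2 change was 1.65 ± 0.11 (SE) in embryo sacs against nucellus (adjusted p = 2.16e-32, edgeR) and 0.45 ± 0.10 after pollination, which is under the fold required for a call. The former falls to 0.91, also under that fold, with total scaling.

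The cellulose synthase8 model GRMZM2G177631_T01 stood at 219 and 202 RPKM in embryo sacs, 95.1 and 106 in nucellus and 393 and 413 after pollination. Its levels were thus ordered nucellus, embryo sac, pollinated embryo sac with no overlap, but both changes lay near the fold threshold: 1.07 ± 0.10 in embryo sacs against nucellus (adjusted p = 3.48e-18, edgeR) and 0.94 ± 0.10 after pollination, which was not called. The first of these was 0.99 without nucellus replicate 1 or without the filter on low counts, and 0.33 under total scaling, all below the threshold. The other cellulose synthase8 model, GRMZM2G082580_T01, had 120 and 138 RPKM in embryo sacs, 33.4 and 38.0 in nucellus and 172 and 146 after pollination. It was higher in embryo sacs than in nucellus by 1.85 ± 0.12 on the log2 scale (adjusted p = 2.14e-33, edgeR), and its change after pollination was 0.30 ± 0.11. Together these 3 models made up 37.7%, 34.4% and 21.0% of the class sum in embryo sacs, and 31.7%, 43.3% and 15.4% in nucellus, named in the order in which they are described here.

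The cellulose synthase10 model GRMZM2G445905_T03 had 20.5 and 22.9 RPKM in embryo sacs, 2.06 and 2.58 in nucellus and 34.0 and 42.5 after pollination. Both kinds of embryo sac lay far above the nucellus, and the log2 change was 3.22 ± 0.17 (adjusted p = 6.58e-41, edgeR), with 0.82 ± 0.13 after pollination, not called. In maize, cellulose synthases 10, 11 and 12 form the group known from secondary walls. The models described as cellulose synthase 11 (GRMZM2G037413_T01) and as catalytic subunit 12 (GRMZM2G142898_T01 and GRMZM2G142898_T02) had 1, 1 and 7 reads in the 6 libraries together, so cellulose synthase10 was the one name of that group with enough reads to test. These untested models were singled out after their values were seen.

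Other models of this class, which is set by the Blast text, were at low levels. Models with cellulose synthase in the GO text alone are given further below, some of them at higher levels. Cellulose synthase5 was listed as 2 tested models of 1 gene, and GRMZM2G111642_T04 had 3.82 and 5.81 RPKM in embryo sacs, 1.03 and 0.776 in nucellus and 0.455 and 0.879 after pollination. Its level was highest in unpollinated embryo sacs, by 2.37 ± 0.57 on the log2 scale against nucellus (adjusted p = 0.000134, edgeR), and GRMZM2G111642_T02 had 22, 2 and 3 reads in the 3 tissues. Reads summed over the gene gave 2.90 against nucellus (adjusted p = 5.09e-08, edgeR) and -2.61 after pollination (adjusted p = 4.31e-05). As single models, the fall of GRMZM2G111642_T04 missed the threshold without embryo sac replicate 2 (adjusted p = 0.0632, edgeR). That of GRMZM2G111642_T02 missed it with DESeq2 (adjusted p = 0.142), and when any 1 of the 4 embryo sac libraries was left out (log2 changes of -2.95 to -1.94).

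The cellulose synthase-9 model GRMZM2G018241_T01 rose after pollination from 3.89 and 3.11 to 6.73 and 8.10 RPKM, with 5.60 and 5.44 in nucellus. The log2 change was 1.08 ± 0.24 (adjusted p = 6.33e-05, edgeR), and it was 0.94 without embryo sac replicate 2, 0.95 without pollinated embryo sac replicate 2 and 0.91 under total scaling, each below the threshold. The cellulose synthase-1 model GRMZM2G112336_T01 had 1.97 and 1.54 RPKM in embryo sacs, 0.695 and 0.820 in nucellus and 5.64 and 3.22 after pollination. It was called higher in both comparisons, by 1.20 ± 0.41 (adjusted p = 0.0073, edgeR) and 1.32 ± 0.34 (adjusted p = 0.00051). Its reads covered 3.55% to 4.91% of the model, and the calls were lost without embryo sac replicate 1 (adjusted p = 0.0901) and without pollinated embryo sac replicate 1 (adjusted p = 0.112), respectively. The first was also lost under total scaling, at 0.47 (adjusted p = 0.288), and with DESeq2 (adjusted p = 0.0853). Cellulose synthase-4, GRMZM2G424832_T01, was the 1 model lower in embryo sacs, at 0.173 and 0.464 RPKM against 0.949 and 1.21 in nucellus and 0.247 and 0.358 after pollination. Its log2 change was -1.76 ± 0.59 (adjusted p = 0.00713, edgeR), and the call was lost with DESeq2 (adjusted p = 0.119). It was also lost without embryo sac replicate 1, at -1.18, and without nucellus replicate 2, at -1.56.

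**Figure D2:**
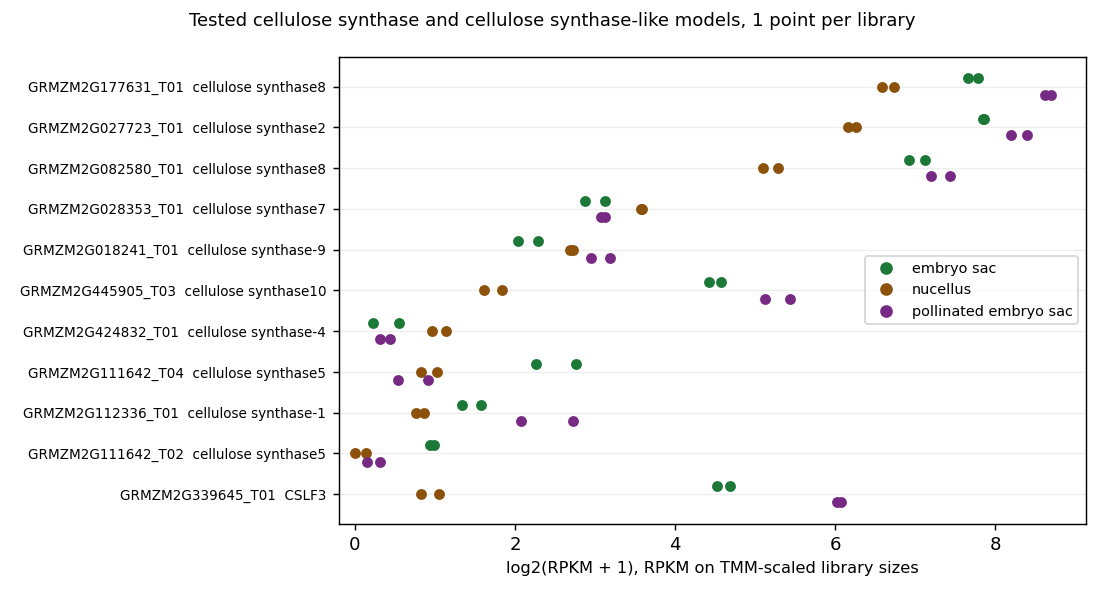
Level of the 10 tested cellulose synthase models and 1 cellulose synthase-like model as log2(RPKM + 1), with 1 point per library in 3 tissues. The models named cellulose synthase2, 8 and 10 and CSLF3 have both nucellus points below all 4 embryo sac points.

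A cellulose synthase-like model, described as a mixed-linkage glucan synthase, was far higher in embryo sacs than in nucellus. The model described as CSLF3, GRMZM2G339645_T01, had 22.0 and 24.8 RPKM in embryo sacs, 1.07 and 0.778 in nucellus, and 66.2 and 64.3 after pollination. It was higher in embryo sacs by 4.64 ± 0.23 on the log2 scale (adjusted p = 4.65e-44, edgeR) and rose after pollination by 1.48 ± 0.14 (adjusted p = 1.31e-19). Its reads covered 82.05% to 94.54% of the model in the 4 embryo sac libraries, and 17.04% and 18.78% in nucellus. The other cellulose synthase-like member, described as CslF7 (GRMZM2G164761_T01), had 3 reads in all libraries together.

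Callose synthases were not called higher in embryo sacs than in nucellus for any of the 10 tested models of 13, while 3 were lower. Of all tested models, 23.2% were higher and 16.3% lower. The median log2 change of the callose synthases was -0.74. Under total scaling 8 of the 10 were lower, against 39.3% of all models, and the median of the 10 was -1.47. The callose synthase 11-like model GRMZM2G022856_T01 had 9.81 and 9.91 RPKM in embryo sacs, 27.3 and 27.5 in nucellus and 9.67 and 7.92 after pollination. The nucellus libraries were the high ones, with a log2 change of -1.47 ± 0.13 in embryo sacs (adjusted p = 1.16e-21, edgeR) and -0.17 ± 0.16 after pollination, not called. The putative callose synthase 6-like model GRMZM2G465764_T01 showed a wider gap, at 0.745 and 0.933 RPKM in embryo sacs, 8.38 and 10.1 in nucellus and 0.621 and 0.257 after pollination, a change of -3.46 ± 0.26 in embryo sacs (adjusted p = 1.72e-26). The putative callose synthase 8-like model GRMZM2G111529_T01 was lower by -1.76 ± 0.34 (adjusted p = 2.79e-06, edgeR), at 1.07 and 1.49 RPKM against 3.92 and 4.74 in nucellus, with 0.913 and 0.735 after pollination.

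After pollination, 4 of the 10 tested callose synthase models were lower and 2 higher, against 19.3% and 13.0% of all tested models. Without the callose synthase 9-like models, 1 of 7 was lower and 2 were higher. The most highly expressed callose synthase of the embryo sac, GRMZM2G453794_T01, had 112 and 106 RPKM there, 106 and 112 in nucellus, and 56.7 and 49.7 after pollination. Embryo sac and nucellus overlapped and both lay above the pollinated libraries, with changes of -0.00 ± 0.11 and -1.04 ± 0.12 (adjusted p = 2.43e-13, edgeR). The second value lay close to the threshold, and it was -0.93 without pollinated embryo sac replicate 2 and -0.99 with DESeq2. Reads covered 96.63% to 99.42% of this model in every library.

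The other 3 models that fell were all described as callose synthase 9-like. GRMZM2G473182_T03 went from 55.1 and 68.0 RPKM in embryo sacs to 3.55 and 3.43 after pollination, with 126 and 109 in nucellus. GRMZM2G066352_T01 went from 25.2 and 27.8 to 1.99 and 1.34, with 41.6 and 33.1 in nucellus. GRMZM2G331861_T01 had 11.5 and 15.0 RPKM in embryo sacs, 24.7 and 24.9 in nucellus and 0.178 and 0.0 after pollination. For all 3 models the nucellus libraries were the highest and the pollinated libraries stood apart at the bottom. The summed green tissue markers were ordered in the same way. Of the 3 that could be tested, 2 were lower and 1 higher in embryo sacs than in nucellus (0 higher under total scaling). After pollination, 2 were lower. The part of these markers in the changes of the 3 callose synthase models was not tested. The log2 changes were -4.12 ± 0.30 (adjusted p = 2.46e-27, edgeR) and -3.98 ± 0.27 (adjusted p = 2.3e-30) for the first and second, and the third had 1 read after pollination against 204 before, a level ratio of 150 with a 95% counting interval from 26.7 to 5970. In embryo sacs against nucellus, GRMZM2G473182_T03, GRMZM2G066352_T01 and GRMZM2G331861_T01 had log2 changes of -0.94 ± 0.14, -0.50 ± 0.14 and -0.91 ± 0.16, not called, but called lower at -1.68, -1.24 and -1.65 under total scaling. GRMZM2G473182_T03 also passed with DESeq2, at -1.01, and without embryo sac replicate 2, at -1.06, or nucellus replicate 2, at -1.04. GRMZM2G331861_T01 passed at -1.07 without embryo sac replicate 2.

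Reads lay on part of the length of these 3 models. In embryo sac and nucellus libraries, reads covered 16.97% to 17.88% of GRMZM2G066352_T01, 12.21% to 12.95% of GRMZM2G331861_T01 and 37.54% to 41.32% of GRMZM2G473182_T03. For the gene GRMZM2G473182, another listed model, GRMZM2G473182_T01, carries a transaminase function text, and the GO function text of the other 2 models names transferase activity and cofactor binding, not glucan synthesis. GRMZM2G473182_T03 made up 26.4% of the callose synthase sum in embryo sacs, 34.6% in nucellus and 3.62% after pollination.

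Both callose synthases that rose after pollination were low before it. The callose synthase 12-like model GRMZM2G418654_T01 had 5.64 and 5.61 RPKM in embryo sacs, 4.86 and 6.12 in nucellus and 16.7 and 15.3 after pollination, a log2 change of 1.50 ± 0.28 (adjusted p = 1.58e-06, edgeR). In Arabidopsis, callose synthase 12 makes callose at wounds and sites of infection. AC210976.4_FGT008, described as a 1,3-beta-glucan synthase component, had 2.49 and 3.35, 2.82 and 4.94, and 8.02 and 14.6 RPKM in the same order, a change of 1.95 ± 0.42 (adjusted p = 3.63e-05). Neither model differed between embryo sac and nucellus by the call rule, with log2 changes of 0.03 ± 0.30 and -0.42 ± 0.46, the second of which was called at -1.15 under total scaling.

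**Figure D3:**
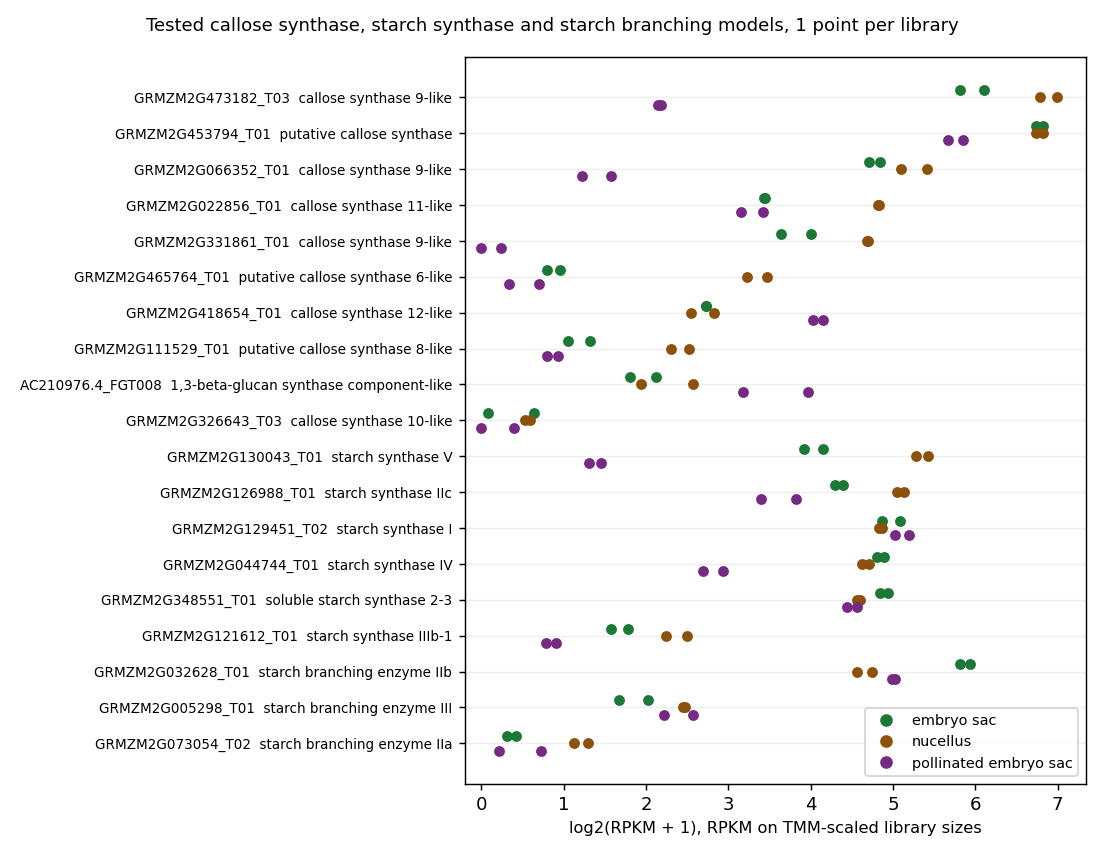
Level of the 10 callose synthase, 6 starch synthase and 3 starch branching models tested, as log2(RPKM + 1), with 1 point per library in 3 tissues. The pollinated points lie far to the left for the 3 callose synthase 9-like models and for starch synthase V and IV, and to the right for the callose synthase 12-like model.

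Starch synthases were lower after pollination for 3 of 6 tested models and higher for none, out of 11 models in the class. Of all tested models, 19.3% were lower and 13.0% higher. Against nucellus, 1 of the 6 starch synthases was lower in embryo sacs, or 16.7%, near the 16.3% of all tested models. Under total scaling 3 of the 6 were lower, against 39.3% of all models. Starch synthase V, GRMZM2G130043_T01, had 14.1 and 16.7 RPKM in embryo sacs, 42.0 and 38.0 in nucellus and 1.73 and 1.48 after pollination. It was called lower in both comparisons, by -1.38 ± 0.15 in embryo sacs against nucellus (adjusted p = 5.79e-16, edgeR) and by -3.25 ± 0.29 after pollination (adjusted p = 1.51e-20). The summed green tissue markers given above had the same order of tissues. Of the 3 tested, however, 1 was higher in embryo sacs than in nucellus (0 under total scaling). The part of these markers in the changes of starch synthase V was not tested. Starch synthase IV, GRMZM2G044744_T01, which in Arabidopsis takes part in starting starch granules, had 26.9 and 28.7 RPKM in embryo sacs, 25.1 and 23.6 in nucellus and 5.49 and 6.66 after pollination. It fell after pollination by 2.19 on the log2 scale (SE 0.18, adjusted p = 2.3e-22, edgeR), and its change of 0.19 ± 0.13 against nucellus was not called.

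Starch synthase IIIb-1, GRMZM2G121612_T01, had 2.45 and 1.97 RPKM in embryo sacs, 4.63 and 3.73 in nucellus and 0.875 and 0.725 after pollination. The fall of -1.46 ± 0.45 (adjusted p = 0.00369, edgeR) became -1.32 (adjusted p = 0.0544) without pollinated embryo sac replicate 2, and its reads covered 4.57% to 8.36% of the model. Starch synthase I, GRMZM2G129451_T02, had 33.0 and 28.2 RPKM in embryo sacs, 28.1 and 27.4 in nucellus and 31.5 and 35.6 after pollination. Its libraries ranged closely in all tissues, with log2 changes of 0.14 ± 0.13 and 0.13 ± 0.14, neither called. Its share of the class sum was 24.5% in embryo sacs, 18.0% in nucellus and 44.6% after pollination, while that of starch synthase V was 12.3%, 25.9% and 2.14%.

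Starch branching enzymes were led in level by enzyme IIb, which is known from the maize kernel mutation amylose-extender. GRMZM2G032628_T01 had 60.1 and 55.1 RPKM in embryo sacs, 22.6 and 25.9 in nucellus and 31.6 and 30.7 after pollination. It was higher in embryo sacs than in nucellus by 1.25 ± 0.12 (adjusted p = 5.59e-18, edgeR), or 0.51 and below the threshold under total scaling, and its change after pollination, -0.89 ± 0.13, was not called but passed the threshold at -1.06 under total scaling. It held 94.2% of the class sum in embryo sacs, 77.9% in nucellus and 86.4% after pollination. Branching enzyme IIa, GRMZM2G073054_T02, was lower in embryo sacs, at 0.343 and 0.246 RPKM against 1.18 and 1.46 in nucellus and 0.654 and 0.158 after pollination. That change of -2.12 ± 0.65 (adjusted p = 0.00306, edgeR) rested on 5 embryo sac and 37 nucellus reads. The call was lost with DESeq2 (adjusted p = 0.0824), and also without embryo sac replicate 2 (log2 change -1.88) or nucellus replicate 2 (-1.94).

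The 48 members chosen by the GO text alone had mostly uninformative Blast descriptions, and they are grouped here by their GO function text. The 31 tested had a median log2 change of 1.20 in embryo sacs against nucellus. Of these, 16 were higher and 2 lower, or 51.6% and 6.45%, against 23.2% and 16.3% of all tested models. Under total scaling 12 of the 31 were higher and 4 lower, against 16.0% and 39.3% of all models, and the median of the 31 was 0.47. After pollination, 5 were higher and 2 lower, or 16.1% and 6.45%, against 13.0% and 19.3% of all tested models. The models with UDP-glucosyltransferase text gave 4 higher of 5 tested in embryo sacs (2 under total scaling) and 3 higher of 5 after pollination. All 4 models with xylosyltransferase text were higher in embryo sacs (3 under total scaling), and none was called after pollination. The tested models with glucosidase (2), oligosaccharyl transferase (2) and debranching (1) text were called in neither comparison. Under total scaling, 1 glucosidase model and the debranching model were lower in embryo sacs. Of 15 tested models with cellulose synthase text, 7 were higher and 1 lower in embryo sacs, and 2 were higher and 2 lower after pollination.

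The member with the highest level in both kinds of embryo sac was GRMZM2G073725_T01, a model with UDP-glucosyltransferase text and no named protein. It had 947 and 888 RPKM in embryo sacs, 155 and 157 in nucellus and 2330 and 2380 after pollination. The tissues were widely separated, with log2 changes of 2.55 ± 0.11 (adjusted p = 8.2e-52, edgeR) and 1.36 ± 0.10 (adjusted p = 1.29e-25). GRMZM2G087326_T01, with the same function text, had 541 and 545 RPKM in embryo sacs, 237 and 219 in nucellus and 1610 and 1730 after pollination, and was the highest member in nucellus. It was called higher in both comparisons, by 1.25 ± 0.11 (adjusted p = 1.63e-22, edgeR) and 1.62 ± 0.10 (adjusted p = 1.33e-31), though the first is 0.51 under total scaling. GRMZM2G045287_T01 followed the same order at 71.3 and 68.9, 16.0 and 17.0, and 176 and 159 RPKM, with changes of 2.09 ± 0.14 (adjusted p = 1.58e-30) and 1.26 ± 0.12 (adjusted p = 2e-18).

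Among models with cellulose synthase text, GRMZM2G103972_T01 had 49.0 and 48.4 RPKM in embryo sacs, 0.901 and 1.78 in nucellus and 168 and 198 after pollination. The nucellus libraries held 11 and 23 of its reads. It was higher in embryo sacs than in nucellus by 5.16 ± 0.19 (adjusted p = 4.12e-58, edgeR) and rose after pollination by 1.91 ± 0.12 (adjusted p = 7.92e-34), with 94.10% to 98.73% of its length covered in the embryo sac libraries. GRMZM2G110145_T01 and GRMZM2G122277_T01 share their best Blast hit, and both were higher in embryo sacs, by 5.24 ± 0.18 (adjusted p = 2.12e-65) and 4.74 ± 0.22 (adjusted p = 2.48e-48). The first had 44.8 and 45.4 RPKM in embryo sacs, 1.08 and 1.28 in nucellus and 62.4 and 60.0 after pollination. The second had 20.8 and 25.6, 0.818 and 0.891, and 38.3 and 36.4 RPKM. Their reads covered 5.95% to 13.50% and 10.48% to 18.51% of the models, so the levels of both rest on short stretches and are uncertain, as only uniquely assigned reads were counted.

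GRMZM5G870176_T01 and GRMZM2G002523_T01, both with cellulose synthase text, are given for the level of the former and the absence of nucellus reads from the latter, and were chosen after their values were seen. GRMZM5G870176_T01 had 327 and 324 RPKM in embryo sacs, 66.5 and 78.2 in nucellus and 549 and 592 after pollination, the third highest member in embryo sacs. Its change against nucellus was 2.17 ± 0.11 (adjusted p = 4.46e-44, edgeR), and its change after pollination, 0.81 ± 0.10, was not called. GRMZM2G002523_T01 had 24 reads in embryo sacs, 31 after pollination and 0 in nucellus, which makes it at least 6.4-fold higher in embryo sacs against a floor of 3 reads per library.

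GRMZM2G015886_T01, also with cellulose synthase text, was lower in embryo sacs than in nucellus and higher after pollination than before it. It had 7.93 and 8.33 RPKM in embryo sacs, 35.3 and 54.5 in nucellus and 23.2 and 30.4 after pollination. Unpollinated embryo sacs were the low group, by -2.47 ± 0.17 against nucellus (adjusted p = 3.34e-16, edgeR), and the rise after pollination was 1.72 ± 0.18 (adjusted p = 2.55e-10). Its level after pollination was still below both nucellus libraries, with a change of -0.74 ± 0.15 that was not called, but passed at -1.66 under total scaling and at -1.03 without nucellus replicate 1.

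Several calls in the GO-text members rest on few reads. GRMZM2G070693_T06 had 14.0 and 10 RPKM in embryo sacs, 3.31 and 1.70 in nucellus and 1.33 and 1.29 after pollination, and it was called higher against nucellus and lower after pollination, by 2.25 ± 0.44 (adjusted p = 3.65e-06, edgeR) and -3.15 ± 0.63 (adjusted p = 7.22e-06). With reads summed over the models of its gene, the second value was -0.98, under the threshold. GRMZM2G333619_T01, whose best hit is a CACTA transposon protein, had 21 reads in embryo sacs, 20 in nucellus and 3 after pollination, and the level ratio of the first to the last was 5.16 with a 95% counting interval from 1.54 to 27.0. Its call after pollination was lost with DESeq2 (adjusted p = 0.118). It was also lost without either embryo sac library (log2 changes of -2.29 and -2.32) or pollinated replicate 1 (-1.37). GRMZM2G048762_T03, with mannosyltransferase text, was lower in embryo sacs than in nucellus (-1.96 ± 0.58, adjusted p = 0.00198, edgeR). That call was lost with DESeq2 (adjusted p = 0.0811) and without nucellus replicate 2 (log2 change -1.79).

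**Figure D4:**
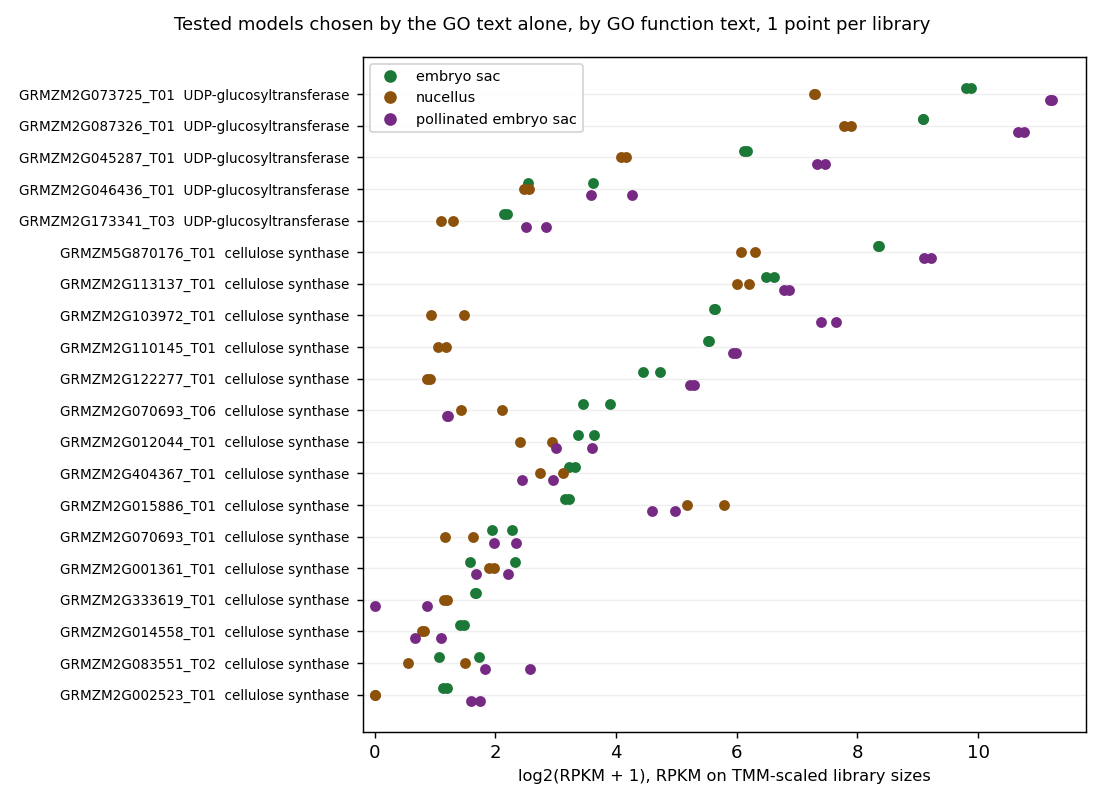
Level of the 20 tested GO-text members with UDP-glucosyltransferase (5) or cellulose synthase (15) function text as log2(RPKM + 1), with 1 point per library in 3 tissues. The highest UDP-glucosyltransferase models lie in the order nucellus, embryo sac, pollinated embryo sac, and GRMZM2G015886_T01 is the model whose unpollinated points lie lowest with both other tissues well above.

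In the direct comparison of pollinated embryo sacs with nucellus, which shares libraries with both others, 24 members were higher and 14 lower, where 27.3% and 27.9% of all tested models were called in those directions, 55.2% in all. By class, 7 of 10 callose synthases (4 of 7 without the callose synthase 9-like models) and 4 of 6 starch synthases were lower there, and 5 of 10 cellulose synthases and 16 of 31 GO-text members were higher. With total scaling, the 2 callose synthases called higher there were not called, and 5 in place of 1 GO-text members were lower. On that scale, the counts over all members were 19 higher and 20 lower, against 17.3% and 48.7% of all models.

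**Figure D5:**
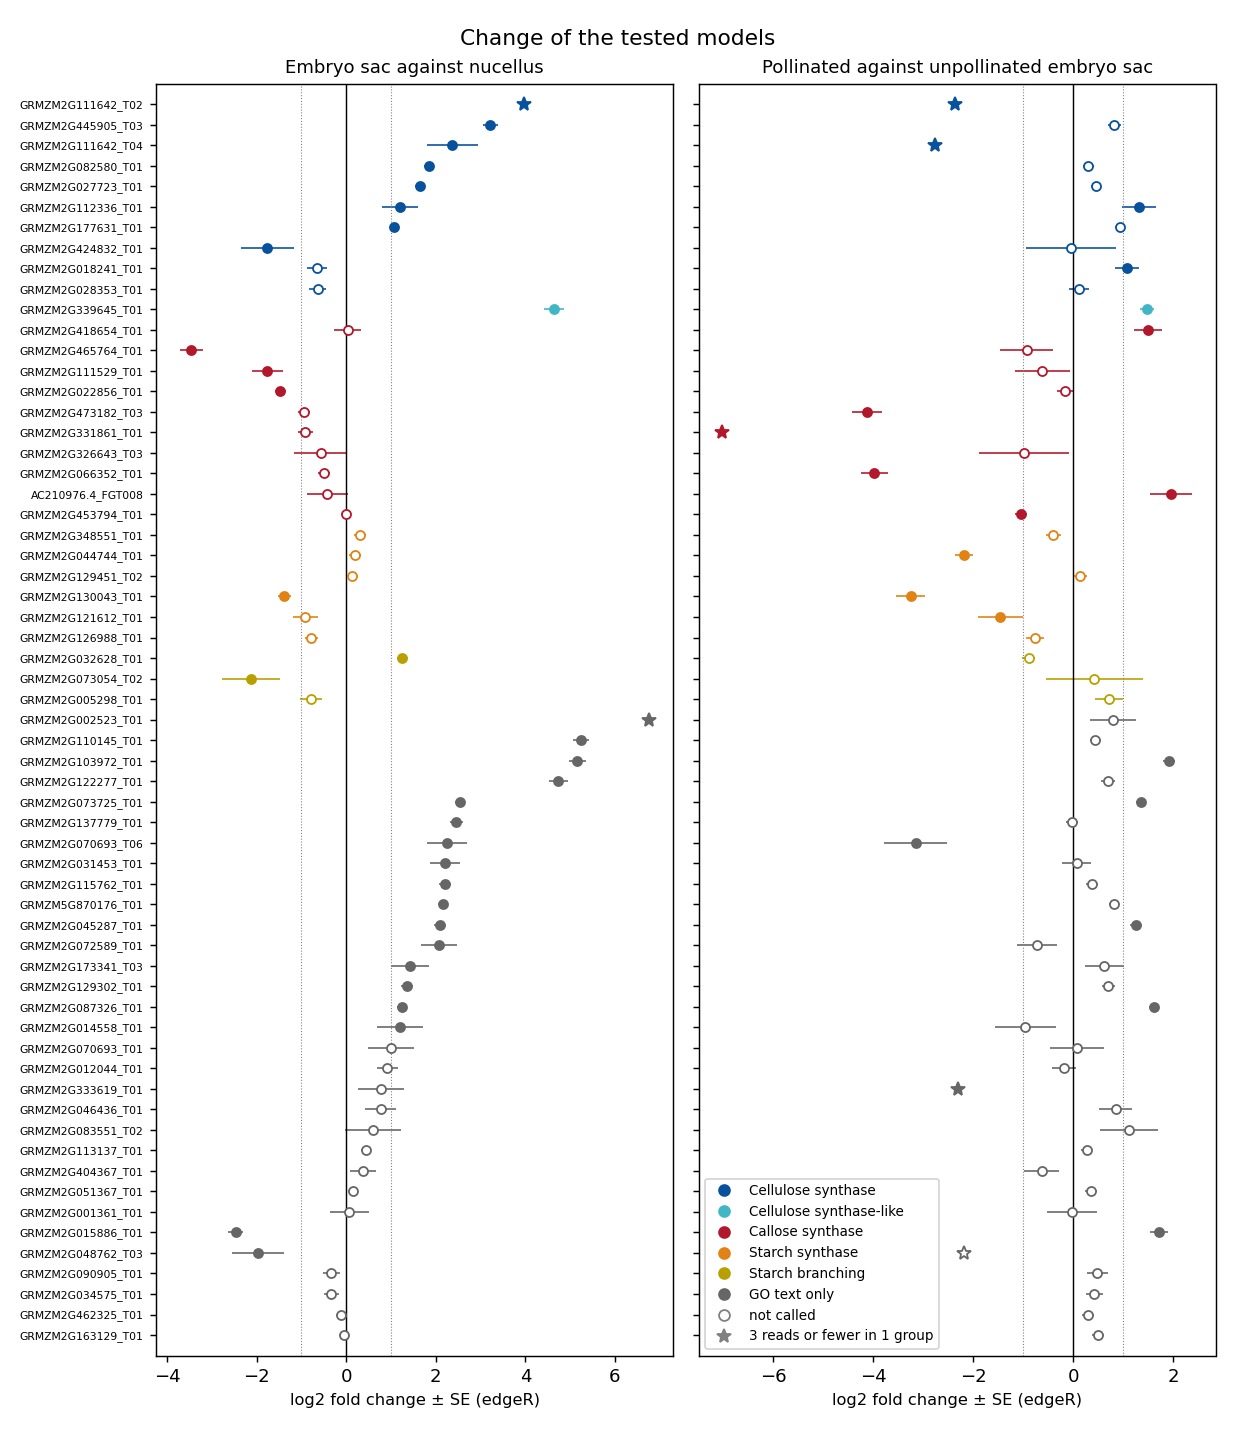
Log2 fold change ± SE (edgeR) of each of the 61 tested members in embryo sac against nucellus (left) and pollinated against unpollinated embryo sac (right), coloured by role class and sorted within class by the left value. Filled symbols are called, open ones are not, dotted lines mark a change of 1, and stars mark changes fitted with 3 reads or fewer in a group, which depend on the fit and have no error bar. On the left, the red callose synthase points lie between -3.46 and 0.03, while 7 of 10 blue cellulose synthase points are called above 0.

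Genes that act next to these enzymes were counted from lists of Blast descriptions. All 3 tested endoglucanases, enzymes that cut 1,4-beta-glucans and take part in cellulose synthesis and wall loosening, were higher in embryo sacs than in nucellus, and 2 were higher after pollination than before it (1 under total scaling). The endoglucanase 16 model GRMZM2G154678_T01 had 44.1 and 44.4 RPKM in embryo sacs, 3.42 and 7.13 in nucellus and 93.8 and 98.4 after pollination. Of 11 tested 1,3-beta-glucanases, which break down callose, 3 were higher and 2 lower in embryo sacs, or 27.3% and 18.2%, against 23.2% and 16.3% of all models. Under total scaling 1 of them was higher and 5 lower, against 16.0% and 39.3% of all models. After pollination, 4 were higher and 1 lower under either scaling, or 36.4% and 9.09% against 13.0% and 19.3% of all models. Of 7 tested amylases, all described as beta-amylases, 2 were higher and 1 lower in embryo sacs (1 and 1 under total scaling). Those 2 and 1 are 28.6% and 14.3%, near the shares of all models. After pollination, 3 amylases were higher and 1 lower under either scaling, or 42.9% and 14.3%. The 1 tested ADP-glucose pyrophosphorylase and the tested starch debranching enzyme, itself a member through its GO text, were called in neither comparison but were both lower in embryo sacs under total scaling, and the 1 tested sucrose synthase was higher in embryo sacs and lower after pollination.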

How the data were processed

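Each library had its own table of transcript models with unique read counts, model length, the percent of the model covered by reads, RPKM, GO text and a best Blast hit, per the file headers. The counts deposited by the authors were whole numbers that summed to the total in the header, and the deposited RPKM could be recomputed from them. The coverage is in percent of model length, per the file headers, and was used as a description only. For the read mapping, the aligner and build were not given in the sources used here. Models absent from a table were taken as 0. Tests on the counts used edgeR 4.0.16 under R 4.3.3 (quasi-likelihood test, TMM scaling, 1 fit over all 6 libraries, low counts filtered with filterByExpr). RPKM in the text were recomputed on TMM-scaled library sizes. A call needed an adjusted p under 0.05 and a log2 change of at least 1. A floor of 3 reads was used, and a level ratio with 1 to 3 reads in a group carries a 95% exact counting interval. Intervals cover counting error only, and reads without molecular identifiers are not independent molecules.

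Role classes followed the Blast text, first match first, and grouping the GO-text members by GO function text was added after the tables were seen. Members with xylosyltransferase function text were kept, since their text does not name xyloglucan. Named models were the 4 called members with the smallest p per class and direction in the first 2 comparisons, the highest member per class and tissue, and members called in both. The members and lists were chosen with earlier results of these data known. RefSeq names (Zm-B73-REFERENCE-NAM-5.0) matched 68 of 101 models but gave only locus symbols. Alternatives were DESeq2 1.42.0, limma 3.58.1 on log2(RPKM + 1) and log2(RPKM + 0.1), other scalings and filters, a replicate block, reads summed per gene and leaving out each library. The fits were tested on simulated data.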

Additional observations from a re-analysis of the deposited data

How the results depend on the processing

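Under the alternatives, the count of members higher in embryo sacs than in nucellus was 16 with limma at either pseudocount, which used RPKM scaled to totals, and the count lower was 20 with total scaling and 17 and 18 with limma at pseudocounts of 1 and 0.1. With members chosen by the Blast text alone, the counts of higher members were 9 for embryo sac against nucellus, 5 for pollinated against unpollinated embryo sacs and 8 for pollinated embryo sacs against nucellus. These came from fewer members, since 31 of the 61 tested were chosen by the GO text alone. Those 31 held 16 of the 25 members higher in embryo sacs than in nucellus, and 2 of the 8 lower. The last comparison had 23 lower members with limma at both pseudocounts. Over all models, total scaling gave 3011 higher and 7412 lower in embryo sacs against nucellus, in place of 4368 and 3065. Leaving out single libraries moved no count of members by over 1.5 times. Replicate numbers were shared by the tissues, but deviations from the tissue means correlated by -0.0194 to 0.0164 between tissues. Same-numbered libraries thus showed no strong shared shift. These values cannot tell whether such libraries shared plants or a harvest, which the labels do not state. With the replicate block, 24 members were higher and 8 lower in embryo sacs against nucellus, 10 higher and 11 lower after pollination, and 24 higher and 14 lower in the last comparison. The shares of all models called with limma or with the replicate block are not given here. The member counts under these settings thus do not set the members apart from other models. Leaving out the callose synthase 9-like models and counting the neighbouring lists under total scaling were chosen after seeing the data. Of 72 called values of the 35 named members, 51 kept their call and direction under every alternative run for them, and 21 lost the call under at least 1. None of the 72 turned its sign. The named members were picked from these same data, mostly for a small p, and a call asks for a log2 change of at least 1 in size. These counts are thus no added support for them. With 2 libraries a group, low members are limited by counting error: 25 of the 101 had under 10 reads in all libraries together.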
